A study of Homo sapiens with 2 samples.

Results

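Messenger RNA of 8 cytochrome P450 enzymes of the CYP1 and CYP2 families (CYP1A1, CYP1A2, CYP1B1, CYP2A6, CYP2B6, CYP2C8, CYP2D6 and CYP2E1) and of AHR, the aryl hydrocarbon receptor, was followed through the cells of 2 single-cell libraries. These 9 genes were found by symbol among the 36601 genes of the deposited tables. Both libraries hold HepaRG cells, a human hepatic line established from a liver tumour and supplied as terminally differentiated. The cells had grown for 7 days on collagen-coated plates and were then kept for 24 h in 0.1% DMSO, the solvent control of a larger stress study; no treated library is analysed here, so every comparison below is between classes of cells within these DMSO cultures. Unique molecular identifiers (UMIs, the tags that count each captured RNA molecule) were read from the 3′ end of polyadenylated RNA after fixation, with 10000 cells loaded per library. Dissociation used actinomycin D and anisomycin, which block transcription and translation, in both libraries. The 2 libraries carry 1 biological replicate label between them, so their spread may be technical.

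Cells were divided by measured genes. ALB-high cells had at least 50 UMIs of ALB (albumin) per 10000 UMIs, and numbered 306 of 4454 cells in replicate 1 and 407 of 4894 in replicate 2. Dividing cells had at least 10 UMIs of TOP2A, MKI67 and CENPF together per 10000 and numbered 1435 and 1606, and the remaining cells numbered 2713 and 2881. Each class is a range of a measured value and not a cell type: 22 and 48 cells lay between 50 and 60 ALB UMIs per 10000, and 43 and 50 between 40 and 50. The labels call all these cells hepatocytes. Of 16 hepatocyte markers, 12 reached 5 CPM (UMIs per 1000000 UMIs of the class) in ALB-high cells of both libraries, 9 in dividing cells and 10 in remaining cells, ALB among them. The classes differed in the level of these markers more than in their number: their sum without ALB was 9945 and 9441 CPM in ALB-high, 541 and 558 CPM in dividing and 893 and 987 CPM in remaining cells. The median depth was 20653 and 12441 UMIs in ALB-high cells, 20834 and 12137 in dividing cells and 16225 and 9602 in remaining cells. The median mitochondrial share was 13.5% and 13.6% in ALB-high cells, 7.90% and 8.05% in dividing cells and 9.16% and 9.38% in remaining cells, and its part in the differences below was not tested.

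Cytochrome P450 enzymes are heme proteins of the endoplasmic reticulum that add oxygen to drugs, toxicants and lipids, with electrons delivered by the reductase POR. The CYP1 genes are the classical targets of AHR, a receptor for planar aromatic compounds that enters the nucleus on ligand binding and pairs with ARNT. The hepatic CYP2 genes depend instead on liver transcription factors such as HNF4A and on the nuclear receptors PXR and CAR, and in liver they are largely expressed by hepatocytes.

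RefSeq promoter sequence (GRCh38.p14) was at hand for 7 of the 9 genes, CYP1B1 and CYP2D6 having no entry in the table. The promoters of the 4 genes that were higher in ALB-high cells are shown, since the results turn on them. Each is the 250 bases before the annotated start, 5′ to 3′ on the strand of the gene, with matches in capitals to GCGTG (the core bound by AHR with ARNT), CAAAGTCCA (an HNF4A motif), AGGTCA (a core motif of nuclear receptors) or TATAAA (the TATA box), searched on both strands, so that a reverse match appears as its complement. No capital letter belongs to overlapping motifs in these 4 windows.
CYP1A1 promoter: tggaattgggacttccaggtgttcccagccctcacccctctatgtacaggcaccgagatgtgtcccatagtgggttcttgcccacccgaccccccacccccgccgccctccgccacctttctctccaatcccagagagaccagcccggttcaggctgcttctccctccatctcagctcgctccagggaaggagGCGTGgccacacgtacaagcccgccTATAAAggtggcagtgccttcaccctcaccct
CYP2C8 promoter: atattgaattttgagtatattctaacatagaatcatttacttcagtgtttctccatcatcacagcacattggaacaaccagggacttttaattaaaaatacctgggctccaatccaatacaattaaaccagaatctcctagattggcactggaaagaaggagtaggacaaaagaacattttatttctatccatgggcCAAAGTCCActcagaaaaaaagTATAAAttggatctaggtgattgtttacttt
CYP2B6 promoter: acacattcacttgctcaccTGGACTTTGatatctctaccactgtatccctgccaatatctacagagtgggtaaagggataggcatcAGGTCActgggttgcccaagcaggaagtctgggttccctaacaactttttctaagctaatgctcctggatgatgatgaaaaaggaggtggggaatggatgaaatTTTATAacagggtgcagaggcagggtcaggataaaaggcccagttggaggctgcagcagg
CYP2E1 promoter: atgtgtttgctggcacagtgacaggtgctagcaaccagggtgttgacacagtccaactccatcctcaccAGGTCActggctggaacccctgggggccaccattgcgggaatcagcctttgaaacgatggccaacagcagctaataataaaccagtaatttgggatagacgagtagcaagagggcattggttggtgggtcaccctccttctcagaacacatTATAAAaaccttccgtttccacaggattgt

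The CYP1A1 window (chr15:74725529-74725778, minus strand) held GCGTG beginning 57 bases before the start and TATAAA beginning 32 bases before it. The CYP2C8 window (chr10:95069498-95069747, minus strand) held CAAAGTCCA beginning 53 bases before the start and TATAAA beginning 31 bases before it. In CYP2B6 (chr19:40991032-40991281, plus strand) that motif lay on the reverse strand, with its outermost base 231 bases before the start, beside AGGTCA beginning 164 bases before it and a reverse TATAAA at 60 bases. The CYP2E1 window (chr10:133527113-133527362, plus strand) held AGGTCA beginning 181 bases before the start and TATAAA beginning 30 bases before it. CYP2A6 also held CAAAGTCCA, beginning 56 bases before its start. Over the 250-base windows of all 35116 promoters, CAAAGTCCA occurred in 0.325%, TATAAA in 10.7%, AGGTCA in 12.1% and GCGTG in 32.2%. The AHR window held none of these motifs. A match is a description of the letters and not evidence of binding in these cells.

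Across the classes, CYP1A1, CYP2C8, CYP2B6 and CYP2E1 were higher in ALB-high than in remaining cells, while CYP1B1 and, by a small margin, AHR were lower. Between dividing and remaining cells CYP1B1 and AHR were called, both slightly lower in dividing cells, and the other tested members were not called. CYP1A2, CYP2A6 and CYP2D6 were too sparse to pass the filter on low counts. UMIs were summed per class and library and compared with edgeR's quasi-likelihood test, with the library as a block and Benjamini-Hochberg adjustment over 19094 genes. The share of all tested genes called at an adjusted p under 0.05 was 48.2% for ALB-high against remaining cells, 24.2% higher and 23.9% lower. Of the 6 tested members 4 were called higher and 2 lower. CYP2B6 and CYP2C8 passed the filter on low counts only through ALB-high cells, where they are high, so these counts are no support for the group as a whole.

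**Figure D1:**
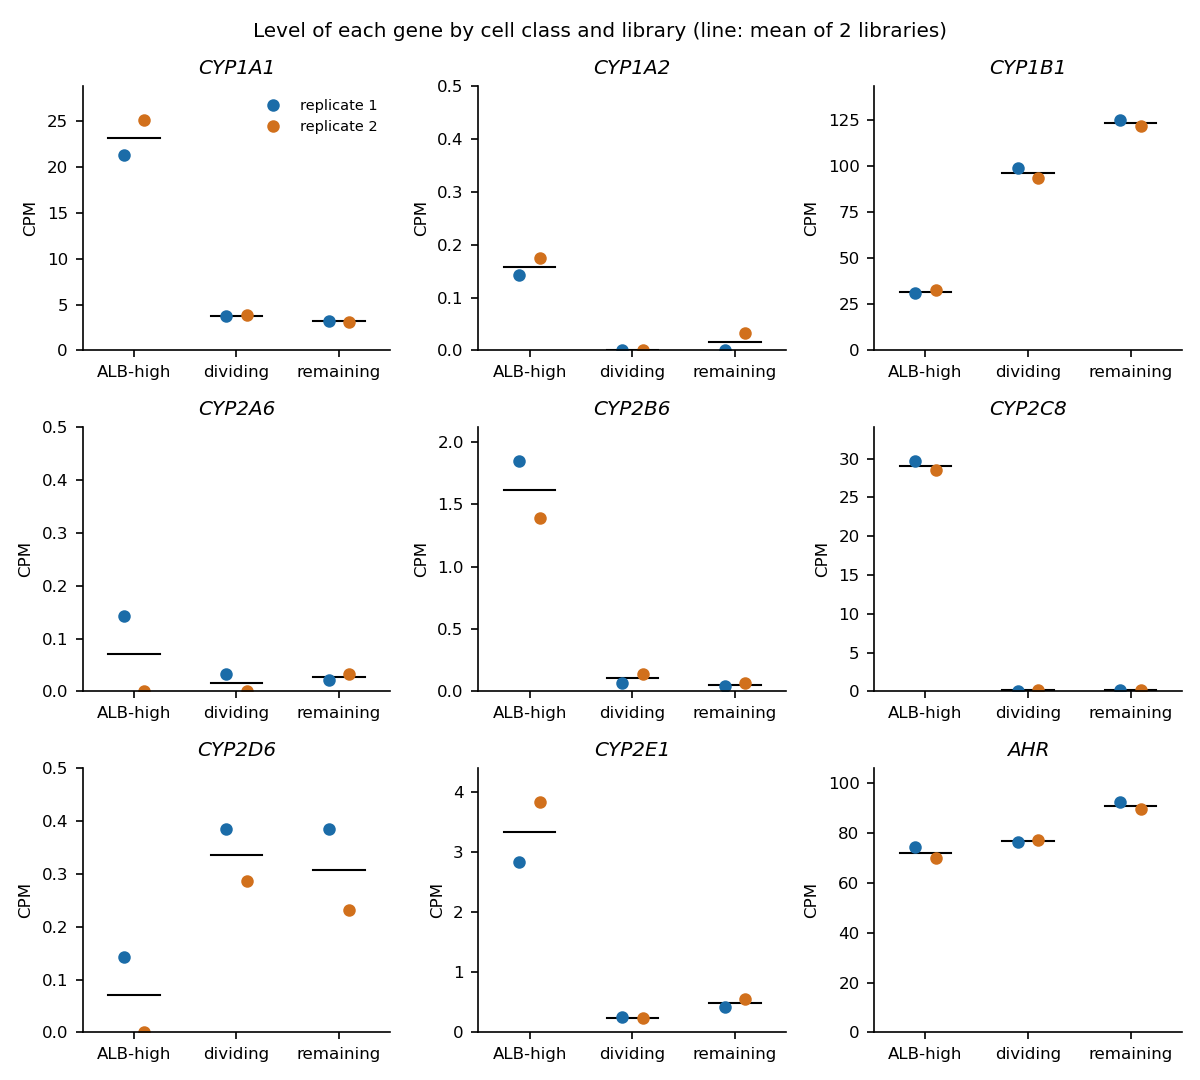
CPM (y axis, separate linear scale in each panel) of the 9 genes in ALB-high, dividing and remaining cells (x axis); points are the 2 libraries and lines their mean. CYP1A1, CYP2B6, CYP2C8 and CYP2E1 lie highest in ALB-high cells in both libraries, CYP1B1 lies lowest there, and CYP1A2, CYP2A6 and CYP2D6 stay below 0.4 CPM in every class.

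CYP2C8 (ENSG00000138115, chr10:95036772-95069497, minus strand), which oxidises paclitaxel and several other drugs as well as arachidonic acid, had the largest ratio of ALB-high to remaining cells among the members, though its counting interval overlaps that of CYP2B6. It had 209 and 164 UMIs in ALB-high cells, or 29.6 and 28.5 CPM, against 7 and 4 UMIs in remaining cells, or 0.150 and 0.132 CPM, and 2 and 5 UMIs in dividing cells. The classes did not overlap, and the 2 libraries gave nearly the same level. The pooled ratio of ALB-high to remaining cells was 204 (95% counting interval 113 to 413), and the log2 fold change was 7.75 ± 0.23 (SE, edgeR adjusted p = 1.8e-16). CYP2C8 passed the filter on low counts only through ALB-high cells, so this p-value is for a gene admitted where it is high.

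CYP2C8 was detected in a minority of the ALB-high cells. A UMI was found in 55 of 306 and 57 of 407 of them, with up to 18 and 8 UMIs in a cell and at least 5 UMIs in 17 and 11 cells. After every cell was thinned to 4000 UMIs, the share was 5.90% and 7.71% in ALB-high cells, against 0.0373% and 0.0710% in remaining cells (1 and 2 cells). Outside the ALB-high class, every cell with CYP2C8 had exactly 1 UMI. The level in remaining cells was 0.505% and 0.462% of that in ALB-high cells. Among the 16 hepatocyte markers, leaving aside the sparse APOA2 and AHSG, the same share ran from 0.515% and 0.792% for transferrin (TF) to 46.2% and 54.9% for CPS1, with 9.09% and 10.5% for SERPINA1 and 23.9% and 27.1% for APOB, so CYP2C8 lay at the low end of that range. No correction was made for RNA outside cells, and its part in these single UMIs was not tested.

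CYP1A1 (ENSG00000140465, chr15:74719542-74725610, minus strand), which oxidises polycyclic aromatic hydrocarbons, was also higher in ALB-high cells, and it was present in the other classes too. ALB-high cells held 21.3 and 25.1 CPM (150 and 144 UMIs), dividing cells 3.75 and 3.81 CPM (117 and 80 UMIs) and remaining cells 3.23 and 3.101 CPM (151 and 94 UMIs). The ALB-high values stood far above both other classes, which lay close together. The ratio of ALB-high to remaining cells was 7.23 (counting interval 6.08 to 8.60), with a log2 fold change of 2.98 ± 0.13 (edgeR adjusted p = 2.3e-13). Remaining cells stood at 15.2% and 12.4% of the ALB-high level, within the range of the hepatocyte markers given above.

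CYP1A1 RNA was concentrated in few cells in every class. It was found in 50 and 59 ALB-high cells, and the tenth of ALB-high cells with most CYP1A1 held 87.3% and 87.5% of its UMIs, with 18 and 11 UMIs in the highest cell. Among remaining cells it was found in 66 and 58, of which 10 and 2 had at least 5 UMIs and the highest had 9 and 6. Unlike CYP2C8, CYP1A1 thus had cells with several UMIs outside the ALB-high class. Thinned to 4000 UMIs, 6.56% and 6.22% of ALB-high cells had a CYP1A1 UMI, against 1.35% and 1.13% of dividing and 1.08% and 0.816% of remaining cells. As deposited, the shares were 16.3% and 14.5% in ALB-high, 4.11% and 3.36% in dividing and 2.43% and 2.01% in remaining cells. Leaving out the highest ALB-high cell of each library left 18.7 and 23.1 CPM.

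**Figure D2:**
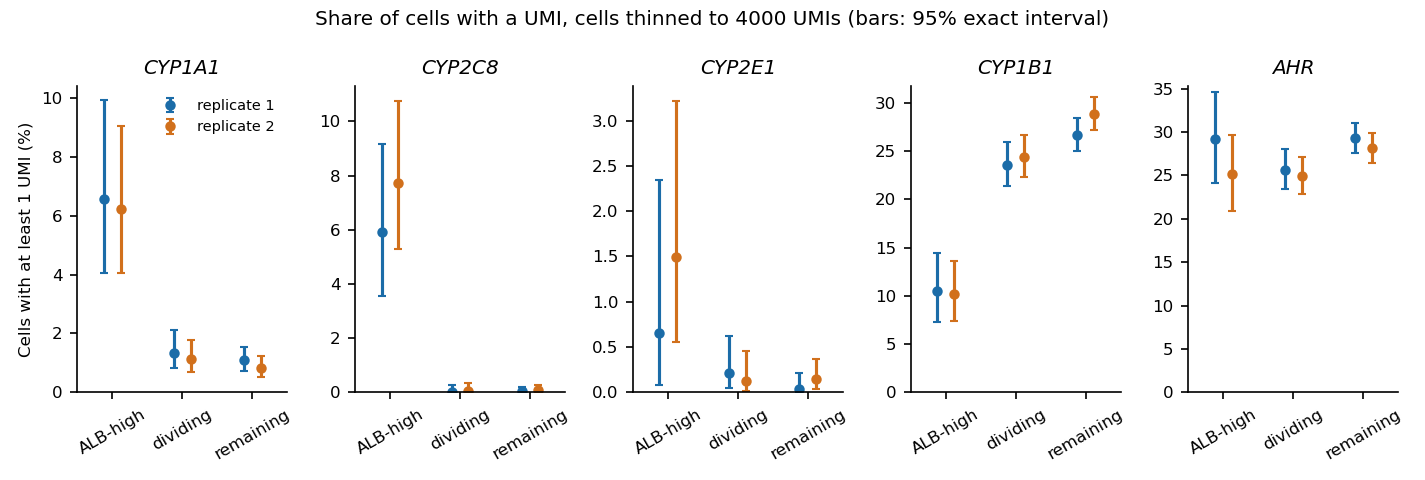
Share of cells with at least 1 UMI (y axis, percent, separate scale in each panel) for 5 genes in ALB-high, dividing and remaining cells (x axis) after thinning to 4000 UMIs per cell; points are libraries and bars are 95% exact binomial intervals, which cover counting error only. The CYP1A1 and CYP2C8 intervals of ALB-high cells lie above those of the other classes, and the CYP1B1 intervals below them. The CYP2E1 interval of ALB-high cells overlaps those of both other classes in replicate 1. The AHR intervals of ALB-high and remaining cells overlap.

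CYP2E1 (ENSG00000130649, chr10:133520406-133561220, plus strand), which oxidises ethanol and paracetamol, had 20 and 22 UMIs in ALB-high cells, 8 and 5 in dividing cells and 20 and 17 in remaining cells. This made 2.83 and 3.83 CPM in ALB-high cells, against 0.427 and 0.561 CPM in remaining cells, with no overlap of these levels. A UMI was found in 11 and 12 ALB-high cells. Thinned to 4000 UMIs, 2 of 305 and 6 of 402 ALB-high cells had a UMI. In replicate 1 that interval overlapped those of both other classes. The log2 fold change was 2.87 ± 0.35 (edgeR adjusted p = 7.0e-07). A single cell carried 7 of the 20 UMIs in replicate 1, and a single cell 6 of the 22 in replicate 2; without them the levels were 1.84 and 2.78 CPM. SCART1 overlaps CYP2E1 on the same strand and had 437 UMIs, and how reads of shared sequence were assigned is not given in the sources used here.

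CYP2B6 (ENSG00000197408, chr19:40991250-41018398, plus strand), a bupropion- and efavirenz-oxidising enzyme and a classical CAR target, was rarer. It had 13 and 8 UMIs in ALB-high cells (1.84 and 1.39 CPM), 2 and 3 in dividing cells and 2 and 2 in remaining cells. The ALB-high values were the highest in both libraries, at 10 and 7 positive cells. The ratio of ALB-high to remaining cells was 31.6, with a wide counting interval of 10.7 to 127 (log2 fold change 4.97 ± 0.64, edgeR adjusted p = 1.9e-06). CYP2B6 too passed the filter on low counts only through ALB-high cells, so the same limit applies to its p-value.

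The other 3 enzymes were at or near the limit of detection. CYP1A2, the caffeine-oxidising enzyme of adult liver, had 1 UMI in ALB-high cells of each library, 0 in dividing cells and 0 and 1 in remaining cells. CYP2A6, the nicotine-oxidising enzyme, had 4 UMIs over all kept cells, 1 of them in an ALB-high cell. A CYP2A6 UMI was captured in 1 of 306 ALB-high cells of replicate 1 (95% exact interval up to 1.81%) and in 0 of 407 of replicate 2, which allows a share of up to 0.737% by the limit of 3 counts; these limit cells with a captured UMI, not cells that express the gene. CYP2D6, which oxidises codeine and many antidepressants, had 1 and 0 UMIs in ALB-high, 12 and 6 in dividing and 18 and 7 in remaining cells. Its ratio of ALB-high to remaining cells had a counting interval of 0.00587 to 1.47, so no difference was detectable at this depth. NDUFA6-DT overlaps CYP2D6 on the opposite strand with 847 UMIs, and whether counting used strand is not given in the sources used here. CYP2A6, CYP2B6, CYP2C8, CYP2D6, CYP1A1 and CYP1A2 all have close relatives in the genome, and their counts may miss reads that match several copies.

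CYP1B1 (ENSG00000138061, chr2:38066973-38109902, minus strand), which oxidises oestrogens and polycyclic hydrocarbons and is known mainly from tissues outside the liver, ran the other way. It had 31.0 and 32.7 CPM in ALB-high cells, 99.0 and 93.7 CPM in dividing cells and 125 and 122 CPM in remaining cells. The classes kept this order in both libraries without overlap. Relative to remaining cells the log2 fold change was -1.83 ± 0.06 in ALB-high cells (edgeR adjusted p = 3.2e-15) and -0.31 ± 0.03 in dividing cells (adjusted p = 1.8e-07). ALB-high cells held 0.257 times the level of remaining cells (counting interval 0.233 to 0.284). Summed mesenchymal markers ran the same way, at 57.8 and 69.3 CPM in ALB-high, 211 and 230 CPM in dividing and 263 and 270 CPM in remaining cells. Of the 10 mesenchymal markers 4 reached 5 CPM in ALB-high, 8 in dividing and 7 in remaining cells, and COL1A2 and THY1 had 0 UMIs in ALB-high cells but only 4 and 3 UMIs in remaining cells. Summed biliary markers had the same order, at 348 and 376 CPM in ALB-high, 513 and 520 CPM in dividing and 784 and 795 CPM in remaining cells. The part of either list in the CYP1B1 difference was not tested.

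CYP1B1 was also widespread: thinned to 4000 UMIs, 10.5% and 10.2% of ALB-high, 23.6% and 24.5% of dividing and 26.7% and 28.9% of remaining cells had a UMI. The highest ALB-high cell had 15 and 13 CYP1B1 UMIs, and the highest remaining cell 54 and 45. Its count is uncertain where other genes overlap it, namely RMDN2 (1467 UMIs) and CYP1B1-AS1 (1901 UMIs) on the opposite strand and RMDN2-AS1 (247 UMIs) on the same strand.

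AHR (ENSG00000106546, chr7:16916359-17346152, plus strand) was expressed at similar levels in all classes. It had 74.4 and 70.0 CPM in ALB-high, 76.6 and 77.3 CPM in dividing and 92.4 and 89.7 CPM in remaining cells. ALB-high and dividing cells both lay below the remaining cells in both libraries, with log2 fold changes of -0.21 ± 0.05 in ALB-high cells (edgeR adjusted p = 0.0030) and -0.21 ± 0.04 in dividing cells (adjusted p = 7.6e-05). ALB-high and dividing cells did not separate from each other, at a ratio of 0.942 (counting interval 0.877 to 1.01). When cells were thinned to 4000 UMIs the ALB-high difference was -0.08 ± 0.10 (adjusted p = 0.585) and was no longer called, and 29.2% and 25.1% of ALB-high cells had an AHR UMI against 29.3% and 28.1% of remaining cells. Thinned to 8000 UMIs, which left out 171 and 1184 cells, the shares were 39.8% and 37.9% in ALB-high cells. Remaining cells then had 48.3% and 47.3%, and the exact intervals did not overlap in either library. AC073332.1 overlaps AHR on the opposite strand and had 1509 UMIs.

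In the comparison of dividing with remaining cells, 49.0% of all tested genes were called, 24.0% being lower. Of the 6 tested members, CYP1B1 and AHR were called lower and none higher. CYP1A1 had a log2 fold change of 0.29 ± 0.14 (edgeR adjusted p = 0.102), and this became a call under 3 alternatives, at 0.44 (adjusted p = 0.025) without the top 4% of doublet scores, 0.38 (adjusted p = 0.049) with an ALB limit of 25 and 0.44 (adjusted p = 0.031) against remaining cells under 10 ALB UMIs per 10000. CYP2E1 was at -0.89 ± 0.44 (adjusted p = 0.101) and CYP2B6 at 0.86 ± 0.92 (adjusted p = 0.465). CYP2C8, with 7 UMIs in dividing and 11 in remaining cells of both libraries, was at -0.04 ± 0.68 (adjusted p = 0.965).

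The 4 abundant members followed albumin in different ways when all cells were binned by their ALB content. CYP2C8 stayed at or below 0.486 CPM in every bin under 50 ALB UMIs per 10000. It then reached 0.426 and 5.20 CPM at 50 to 100, 8.57 and 19.6 CPM at 100 to 200 and 79.1 and 67.9 CPM at 200 or more. CYP1A1 was still at 4.69 and 4.25 CPM between 50 and 100, close to cells with almost no ALB at 3.59 and 3.38 CPM, although the bin from 25 to 50 held 9.24 CPM in replicate 2 and 3.64 CPM in replicate 1. CYP1A1 stood at 17.1 and 22.2 CPM between 100 and 200 and 41.7 and 54.3 CPM above. Most of the excess of both genes in the ALB-high class thus lay above 100 ALB UMIs per 10000.

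CYP1B1 began to differ at much lower ALB. It was at 119 and 113 CPM below 1 ALB UMI per 10000, 80.5 and 92.5 CPM between 10 and 25, 61.6 and 64.2 CPM between 25 and 50, 45.2 and 44.4 CPM between 50 and 100 and 19.8 and 18.3 CPM at 200 or more. From the bin of 5 to 10 ALB UMIs upward each bin was lower than the bin before it in both libraries, while in replicate 2 the bin of 2 to 5 was the highest, at 123 CPM. AHR had no single direction, with its highest bins between 2 and 10 ALB UMIs per 10000, at 93.3 to 105 CPM, and 73.6 and 82.1 CPM in the top bin. These bins share cells' depth and library, and no test was made across them.

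**Figure D3:**
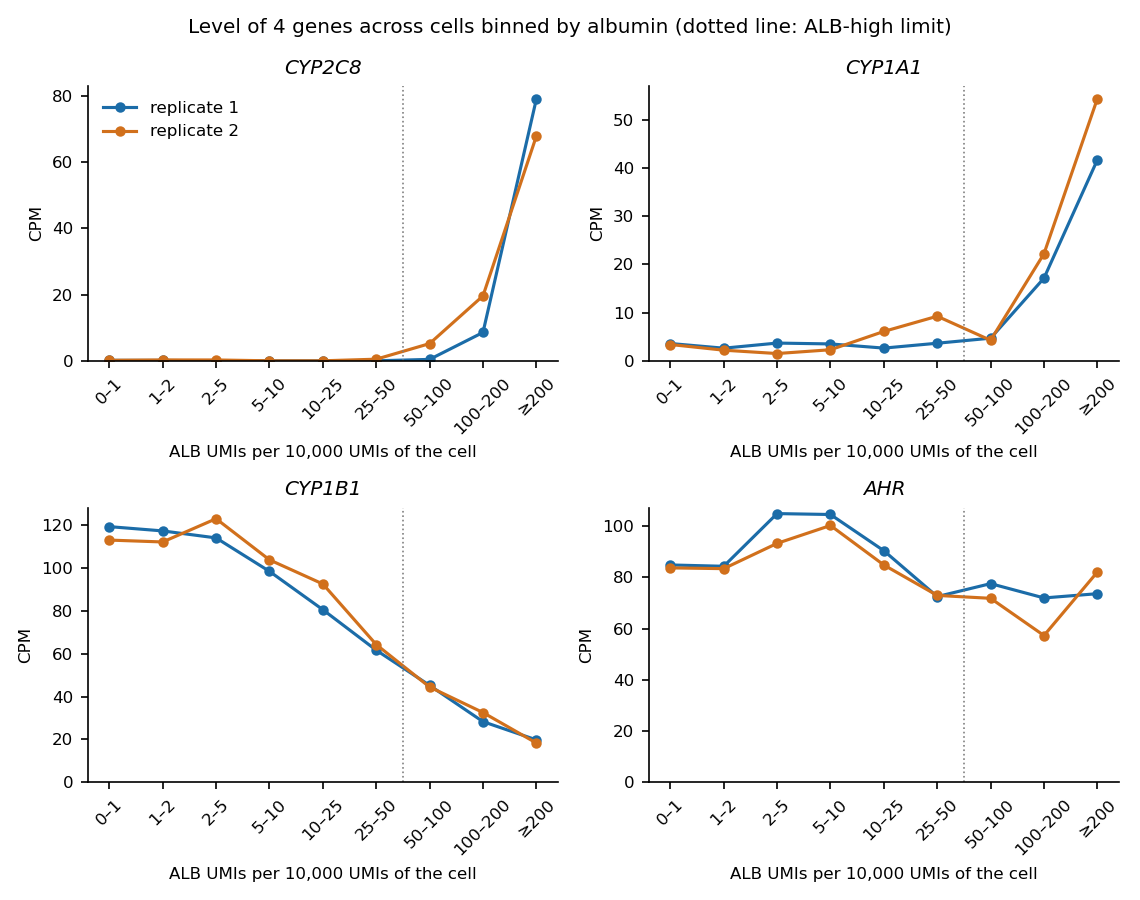
CPM (y axis, linear) of CYP2C8, CYP1A1, CYP1B1 and AHR in cells binned by ALB UMIs per 10000 (x axis, low to high); lines are the 2 libraries and the dotted line marks the ALB-high limit of 50. CYP2C8 and CYP1A1 climb in the top 2 bins, CYP1B1 is at 119 and 113 CPM in the lowest bin and 19.8 and 18.3 CPM in the top bin, and AHR shows no single direction.

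CYP1A1 and CYP2C8 tended to be found in the same ALB-high cells as deposited. ALB-high cells with a CYP1A1 UMI had 56.7 and 64.9 CPM of CYP2C8, and those without had 22.6 and 20.9 CPM. ALB-high cells with CYP1A1 held 14 and 15 CYP2E1 UMIs, against 6 and 7 in those without, but a single cell in each library gave 7 of the 14 and 6 of the 15. Cells with CYP1A1 were deeper, at a median of 27851 and 17262 UMIs against 19354.5 and 12167. Thinned to 4000 UMIs, 1 of 20 and 4 of 25 ALB-high cells with CYP1A1 also had CYP2C8, against 5.96% and 7.16% of those without. The exact intervals for cells with CYP1A1, 0.127% to 24.9% and 4.54% to 36.1%, include the shares of those without, so no difference was detectable at equal depth.

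CYP1A1 and CYP1B1 met in the same cells outside the ALB-high class. Remaining cells with a CYP1A1 UMI had 366.5 and 282 CPM of CYP1B1, against 117 and 117 CPM in those without. Dividing cells with CYP1A1 had 230 and 207 CPM of CYP1B1, against 92.0 and 88.8 CPM. In ALB-high cells CYP1B1 was at 22.8 and 26.0 CPM with CYP1A1 against 33.2 and 34.1 CPM without, but the shares of cells at equal depth had no common order, at 1 of 20 and 3 of 25 cells with CYP1A1 against 10.9% and 10.1% of those without. At equal depth, 57.9% and 61.1% of dividing cells with CYP1A1 (11 of 19 and 11 of 18) had a CYP1B1 UMI, against 23.1% and 24.0% of those without, and 48.3% and 39.1% of remaining cells with CYP1A1 (14 of 29 and 9 of 23), against 26.5% and 28.8%. The interval for replicate 2 of the remaining cells, 19.7% to 61.5%, includes the share of cells without CYP1A1.

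The same comparison for AHR had no order that held at equal depth. Remaining cells with CYP1A1 had 121 and 111 CPM of AHR, against 91.5 and 89.1 CPM in those without, and ALB-high cells had 67.8 and 65.9 CPM with CYP1A1 against 76.1 and 70.8 CPM without. At equal depth the libraries went opposite ways: an AHR UMI was found in 41.4% and 26.1% of remaining cells with CYP1A1, against 29.1% and 28.2% of those without, and in 10.0% and 36.0% of ALB-high cells with CYP1A1, against 30.5% and 24.4%. AHRR, the AHR repressor and a target of the same pathway, was at 29.96 and 20.8 CPM in remaining cells with CYP1A1 and 28.99 and 29.5 CPM in those without. Cells of a library are not replicates, so these splits carry no test.

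**Figure D4:**
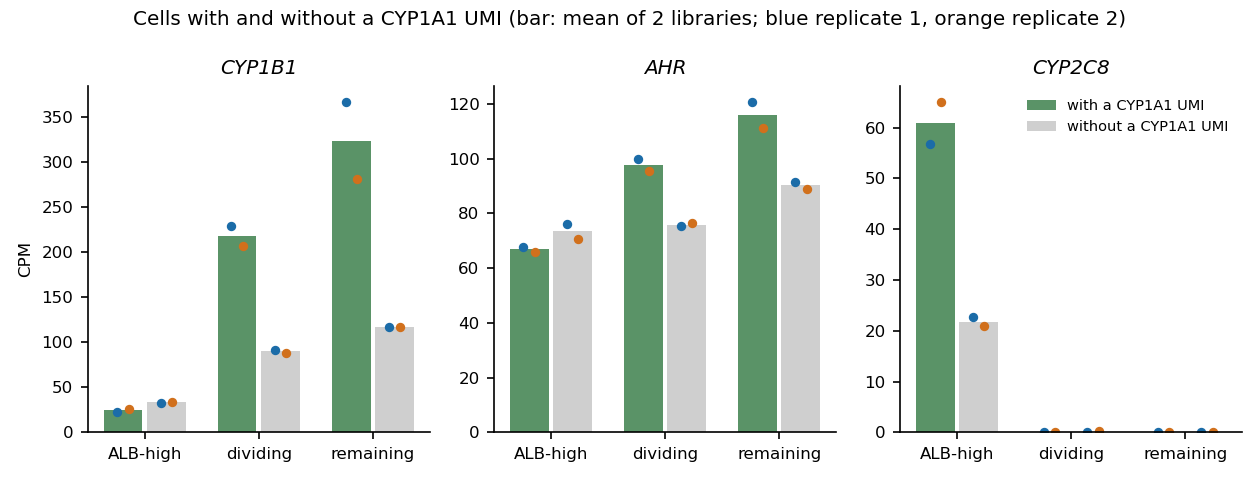
CPM (y axis, linear, separate scale in each panel) of CYP1B1, AHR and CYP2C8 in cells with (green) and without (grey) a CYP1A1 UMI, by class (x axis); bars are means of 2 libraries and points the libraries. CYP1B1 is higher in dividing and remaining cells with CYP1A1 but not in ALB-high cells. There CYP2C8 is higher instead, at 56.7 and 64.9 CPM against 22.6 and 20.9 CPM. The split is not at equal depth or equal ALB.

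Clusters of cells made without these 9 genes gave a finer map. The cells fell into 10 clusters, of which cluster 10 held 10 and 22 cells. Cluster 9, led by TF, HP and ALB and with 89.5% ALB-high cells, held 36.2 and 35.7 CPM of CYP2C8, and the other clusters at most 0.454 CPM in a library. It also had the highest CYP1A1, at 25.01 and 31.4 CPM, and the lowest CYP1B1, at 21.2 and 31.4 CPM. ALB and the other listed marker genes were also left out when the clusters were made. Cluster 9 still held mostly ALB-high cells, so it is no separate support for differences of that class.

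Outside cluster 9, CYP1A1 varied more than AHR. It was at 0.273 and 0.564 CPM in cluster 3 and 0.557 and 0.671 CPM in cluster 7, both with the platelet-derived growth factor receptor PDGFRB among their leading genes, and at 1.08 and 0.626 CPM in cluster 8, led by the transporter SLC47A2. It reached 7.42 and 5.72 CPM in cluster 5, led by thrombospondin THBS1, and 5.03 and 7.30 CPM in cluster 4, led by the mitotic cyclin CCNB1. CYP1B1 was likewise low in clusters 3 (61.6 and 68.2 CPM) and 7 (55.5 and 45.8 CPM), but high in cluster 8 (164 and 137 CPM) as well as in clusters 5 (150 and 152 CPM) and 1 (149 and 144 CPM). Clusters 3 and 7 had the most PDGFRB, a mesenchymal marker, at means of 38.7 and 42.2 CPM. The biliary marker KRT19 was highest in clusters 3 and 5, at means of 1217 and 1104 CPM. Neither marker had the same order of clusters as CYP1B1, though KRT19, like CYP1B1, was lowest in cluster 9, at a mean of 232 CPM. The mesenchymal marker DCN was also lowest in cluster 9, at a mean of 7.42 CPM. Its mean was 119 CPM in cluster 3, 62.5 CPM in cluster 1 and 20.4 CPM in cluster 5. The part of either marker list in CYP1B1 across clusters was not tested. AHR ran only between 56.4 and 104 CPM across clusters 1 to 9.

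Inside clusters the relation of CYP1A1 with CYP1B1 varied. In cluster 4 the 21 and 20 cells with CYP1A1 had 348 and 386 CPM of CYP1B1, against 95.8 and 111 CPM in the others, and in cluster 5 the 19 and 14 such cells had 328 and 467 CPM, against 140 and 140 CPM. In cluster 2, led by the histone HIST1H1B and TOP2A, the values were 257 and 173 CPM with CYP1A1 against 105 and 99.5 CPM without. Cluster 1 had 375 and 176 CPM with CYP1A1, against 139 and 144 CPM, so that replicate 2 differed little. Cluster 6 showed less difference, at 149 and 106 CPM against 109 and 98.9 CPM. In cluster 9 cells with CYP1A1 had 16.5 and 27.0 CPM, against 22.5 and 32.5 CPM. Clusters 3, 7 and 8 had only 2 to 4 cells with CYP1A1 in a library, and in clusters 3 and 7 the 2 libraries went opposite ways. AHR, without equal depth, was higher in cells with CYP1A1 in both libraries of clusters 1 to 5. In cluster 2 it was at 97.3 and 93.6 CPM against 73.1 and 78.2 CPM. It was lower in both libraries of clusters 7 and 9, and the libraries went opposite ways in clusters 6 and 8. The cells with CYP1A1 held only 4 and 8 AHR UMIs in cluster 3, 1 and 0 in cluster 7 and 4 and 4 in cluster 8. These directions therefore rest on very few counts.

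**Figure D5:**
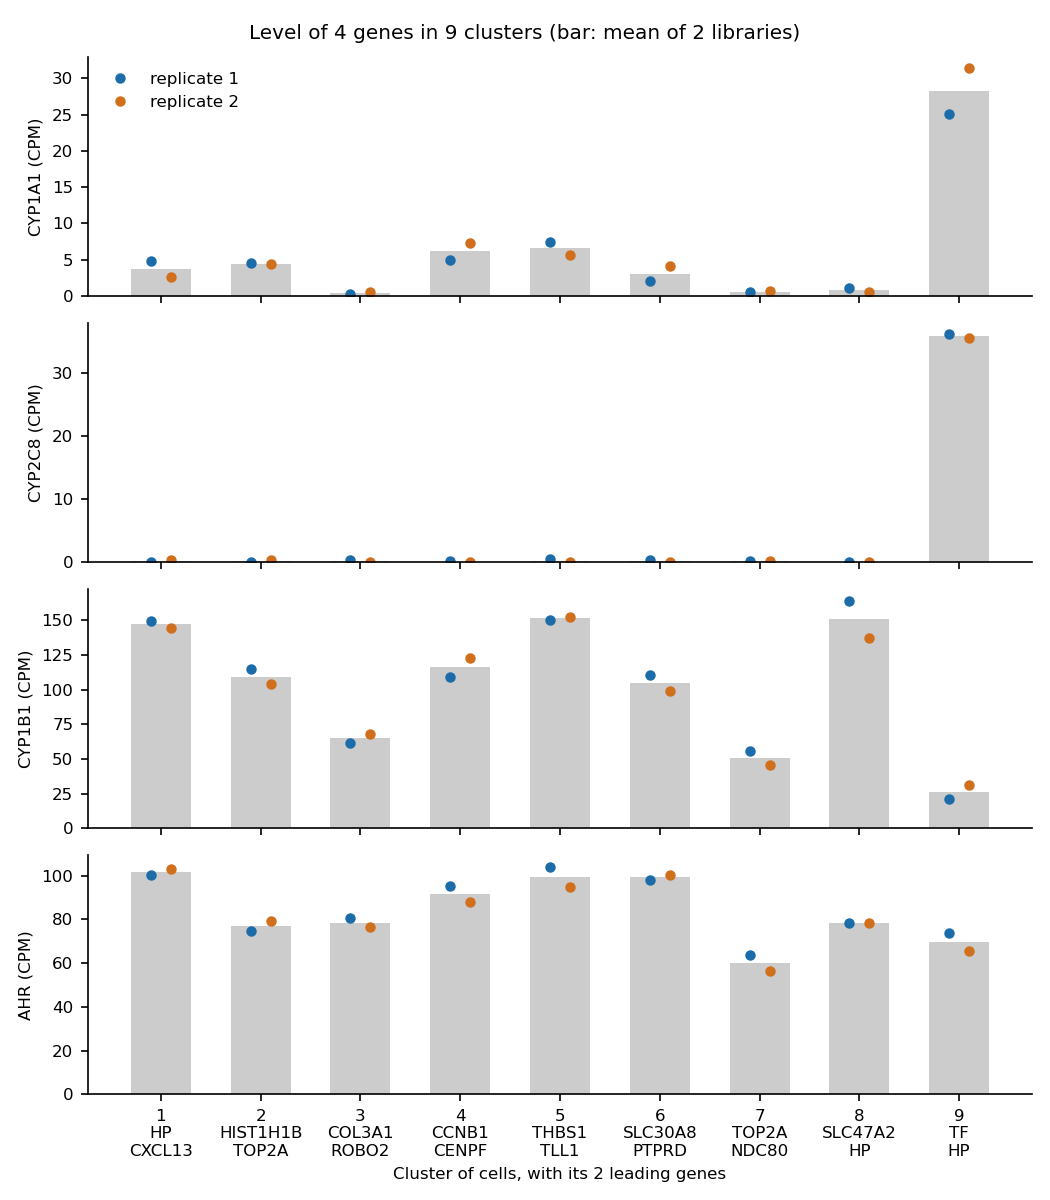
CPM (y axes, linear) of CYP1A1, CYP2C8, CYP1B1 and AHR in clusters 1 to 9 (x axis, each with its 2 leading genes); bars are means of 2 libraries and points the libraries. CYP2C8 is seen in cluster 9 alone at this scale, CYP1A1 is lowest in clusters 3 and 7, and CYP1B1 is lowest in cluster 9.

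Over the 20 sums of 10 clusters in 2 libraries, which share libraries and cells' depth, the genes most like CYP2C8 were FABP1, a fatty acid carrier of the liver (Pearson r = 0.991 of log2(CPM + 1)), MIR122HG, the host transcript of a hepatic microRNA (0.987), and the alcohol dehydrogenase ADH1B (0.987). These rest on cluster 9: without it the values were 0.239, 0.0323 and 0.122. Those most like CYP1A1 were CXADR (0.918), ECHS1 (0.884) and SLC9A3R1 (0.875), and they held at 0.841, 0.762 and 0.820 without cluster 9. Those most like CYP1B1 were SLC25A6 (0.892, and 0.735 without cluster 9), SOCS2 (0.884 and 0.690) and OSBPL10 (0.841 and 0.743). Those most like AHR were GAGE1 (0.896 with and without it), DAPK1 (0.893 and 0.933) and RGS3 (0.890 and 0.904). Without the small cluster 10 the AHR values fell to 0.8051, 0.8015 and 0.8575.

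Other genes of these families and of the pathways around them are given as counts over all listed genes tested, beside the 24.2% and 23.9% of all genes called higher and lower in ALB-high cells, with a median of -0.02 on the log2 scale; in dividing cells 4775 and 4590 of the 19094 genes were called higher and lower. Of 7 further CYP2 genes tested, 3 were higher in ALB-high cells and none lower. All 3 passed the filter on low counts only through ALB-high cells, where they are high, so this count is no support for the list. Among them were CYP2C19 (5.21 ± 0.44) and CYP2C18 (4.33 ± 0.31), genes of the CYP2C8 subfamily, with edgeR adjusted p of 4.8e-09 and 3.1e-10. CYP2C19 had 26 and 21 UMIs in ALB-high cells against 5 and 3 in remaining cells. CYP2J2, CYP2R1, CYP2S1 and CYP2U1 were not called. Close relatives in this subfamily may share reads.

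Genes listed around AHR, its partners and targets among them, did not move in a single direction. Of 17 tested, 4 were higher in ALB-high cells, 7 lower and 6 not called, with a median of -0.18. The 4 were GSTA2, a glutathione transferase (log2 fold change 4.52), TDO2, which opens the tryptophan ring on the way to kynurenine (3.05), UGT1A6, a glucuronosyltransferase whose last exons are shared with its neighbours (1.48), and TIPARP, an AHR target that restrains the receptor (0.41). The chaperone HSP90AB1 (-0.55), the co-chaperone PTGES3 (-0.22), the ARNT relative ARNT2 (-1.14) and the phospholipid enzyme LPCAT2 (-1.19) were among the lower ones. ARNT (-0.06, adjusted p = 0.620), AHRR (-0.19, adjusted p = 0.091) and NQO1 (0.57, adjusted p = 0.147) were not called. In dividing cells 5 of the 17 were higher and 5 lower than in remaining cells; AHRR was lower by this test (log2 fold change -0.39, adjusted p = 1.3e-05), at 22.3 and 20.7 CPM in dividing against 29.02 and 29.3 CPM in remaining cells.

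Of 13 tested hepatic transcription factors and drug sensors, 11 were higher in ALB-high cells and 1, CEBPB (-0.10 ± 0.04, edgeR adjusted p = 0.040), was lower, with a median of 1.21. Among these were ONECUT1 (5.93 ± 0.14), NR1I2, which encodes PXR (2.83 ± 0.22), FOXA1 (2.33 ± 0.18), HNF4A (2.10 ± 0.06) and CEBPA (1.64 ± 0.20). HNF4A was at 97.5 and 90.2 CPM in ALB-high cells against 23.8 and 24.2 CPM in remaining cells. Within the ALB-high class, cells with a CYP2C8 UMI had 124 and 121 CPM of HNF4A, against 91.5 and 83.4 CPM in those without, which were shallower (cells with CYP2C8 had a median of 22437 and 17819 UMIs, those without 20167 and 11917.5). HNF4A, like CYP2C8, also rose with ALB inside the class. Its mean was 69.5 CPM at 50 to 100 ALB UMIs per 10000, 87.8 at 100 to 200 and 127 at 200 or more. The split was not made at equal ALB. NR1I3, which encodes CAR, had 1 and 2 UMIs in ALB-high cells and was not tested. In dividing cells 2 of these 13 were higher and 7 lower than in remaining cells.

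Of 18 genes that supply electrons or heme to P450 enzymes, 10 were higher in ALB-high cells and 2 lower, with a median of 0.20. POR was at 146 and 142 CPM in ALB-high cells against 74.4 and 72.3 CPM in remaining cells (log2 fold change 1.10 ± 0.05, edgeR adjusted p = 7.5e-14). CYB5A, which passes electrons to several P450 enzymes, was higher by 1.18 ± 0.03, and ALAS1, the rate-limiting enzyme of heme synthesis, by 0.78 ± 0.07. In dividing cells POR was lower than in remaining cells by the same test (-0.59 ± 0.04, adjusted p = 3.2e-10), and 7 of the 18 were higher and 4 lower.

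Genes zoned along the liver lobule were counted on both sides; CYP2E1 and CYP1A2 are classical pericentral ones. Of 7 pericentral genes tested in ALB-high against remaining cells, CYP2E1 and RGN (1.94 ± 0.12) were higher and 5 were lower, with a median of -0.70. The 5 were SLCO1B3 (-1.70 ± 0.12), AXIN2 (-0.85 ± 0.18), TBX3 (-0.70 ± 0.09), GLUL (-0.14 ± 0.04) and LGR5 (-6.62 ± 2.32). LGR5 had 0 UMIs in ALB-high cells and 32 and 9 in remaining cells. It passed the filter on low counts only through the other classes, so its call is no support for the list. Of 9 periportal genes tested, 7 were higher and none lower, but 4 of the 7, G6PC1, HAL and SDS included, passed the filter only through ALB-high cells, so the count supports nothing about the list. Among the 7 were G6PC1 (6.03 ± 0.92), HAL (3.23 ± 0.43) and the epithelial cadherin CDH1 (2.56 ± 0.16).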

How the data were processed

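UMI counts per barcode and gene were made by the authors with Cell Ranger 7.0.0, per the file headers, with STAR and GRCh38 per the submitters' processing notes (the annotation release, intron and strand settings and the barcode filter were not stated there). The 12 antibody features held 0 UMIs and were not used. Replicates 1 and 2 held 85475317 and 57246647 UMIs in 4591 and 4998 barcodes, 10 of them shared between the libraries. A barcode was kept if it had 500 genes or more, 1000 UMIs or more and no more than 25% mitochondrial UMIs. Cells over both class limits (49 and 50) counted as ALB-high.

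Scrublet marked 4 and 0 barcodes, under 0.5%, so it did not work as a doublet filter and none were removed. CPM are a gene's UMIs per 1000000 UMIs of the class. Sums per class and library (3 classes, 2 libraries) were tested with edgeR 4.0.16 (TMM, filterByExpr, quasi-likelihood, library block, residual spread on 2 degrees of freedom), leaving out ALB, TOP2A, MKI67 and CENPF, which define the classes; the test was first tried on simulated data. P-values measure the spread between these sums only. Shares have exact Clopper-Pearson intervals and ratios exact conditional binomial ones, at 95%, for counting error only; 3 counts bound a share of 0. Thinning to 4000 UMIs left out 64 and 83 cells. Clusters came from scanpy 1.11.5 (2000 variable genes, 30 components, 15 neighbours, Leiden resolution 0.5).

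All 9 members are named, and up to 6 called genes of largest change per list, apart from some genes that are not reported here; genes alike are the 3 with the highest correlation among genes of at least 5 CPM. Other genes named within lists (TIPARP, PTGES3, ARNT, AHRR, NQO1, CYP2J2, CYP2R1, CYP2S1, CYP2U1, NR1I3, CEBPB) were chosen after their values were seen. The members and lists were chosen with earlier results of these data known. Positions are from GENCODE 29 and promoters from RefSeq. Alternatives were other normalization, DESeq2 1.42.0, no count filter, no block, thinning, no cell filter, doublet scores, class limits and single libraries.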

Additional observations from a re-analysis of the deposited data

How the results depend on the processing

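The 5 calls of CYP1A1, CYP1B1, CYP2B6, CYP2C8 and CYP2E1 between ALB-high and remaining cells kept direction and side of the threshold under every alternative that gave a value (12, or 11 for CYP2B6 and CYP2E1, which could not be tested after thinning). Their log2 fold changes ranged from 2.73 to 3.48 for CYP1A1, -2.13 to -1.54 for CYP1B1, 4.43 to 5.22 for CYP2B6, 7.21 to 7.94 for CYP2C8 and 2.58 to 3.49 for CYP2E1. CYP2B6 and CYP2C8 passed the main count filter only through ALB-high cells. With no count filter they were at 4.92 and 7.70. AHR lost its call in ALB-high cells at 4000 UMIs per cell, at -0.08 against -0.21 in the main fit. Fewer counts enter there, and the cause of this change was not tested. In dividing cells CYP2C8, which was not called, changed sign to 0.014 without the top 4% of Scrublet scores and to 0.24 with an ALB limit of 100; the cause was not tested. After thinning, 5329 genes were called in ALB-high and 6042 in dividing cells, against 9202 and 9365. Fewer genes (15298) and fewer counts were then tested. DESeq2 called 4535 in dividing cells. The cause of these changes was not tested. With no count filter the median log2 fold change of all genes in ALB-high cells was -0.15.

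With no replicate block, 9087 and 8946 genes were called, and no call of a member changed. Over libraries taken singly, the log2 CPM ratio of ALB-high to remaining cells was 2.72 and 3.01 for CYP1A1, -2.01 and -1.90 for CYP1B1 and 7.63 and 7.76 for CYP2C8. That of dividing to remaining cells for CYP2C8 was -1.22 in replicate 1 and 0.85 in replicate 2, so its sign rests on the library. Shares of cells with a UMI depend on depth: for CYP1A1 in ALB-high cells the mean was 6.39% at 4000 UMIs, 9.81% at 8000 and 15.4% as deposited. CYP1A2, CYP2A6 and CYP2D6 entered a fit with no count filter, where their ALB-high differences were 3.16, 1.51 and -1.88 (edgeR adjusted p = 0.442, 0.814 and 0.347) and none was called; reads shared by CYP2 relatives limit all CYP2 counts.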
